A study of Mus musculus with 12 samples.

Results

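The 10 genes described here, Dusp4, Dusp5, Dusp6, Spry1, Spry2, Spry4, Spred1, Spred2, Etv4 and Etv5, are outputs and brakes of the signal that runs from receptor tyrosine kinases to the kinase ERK. They were chosen by name out of 23715 genes with a value, and the choice was made with earlier results known from comparing Med23MSC-/- with control and Runx2+/- with WT mice. The levels in these 2 comparisons are therefore given as a description, without a test. All 10 genes passed the filter on low values, at least 1 FPKM (a fragment count divided by transcript length and library size) in at least 3 of 12 mice, which 13059 genes passed.

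RNA was sequenced from the calvaria, the roof of the skull, of 12 newborn C57BL/6 mice, 3 in each of 4 groups. The paper's methods name the parietal bone, a part of the calvaria, as the source. The first cross gave mice with Med23 deleted in mesenchymal stem cells (Med23 fl/fl with Prx1-Cre, here Med23MSC-/-) and control littermates. The labels give these controls as wild type, while captions in the paper define control mice of this cross as Med23 fl/fl. The second gave Runx2+/- mice, with a single working copy of the gene for the master transcription factor of osteoblasts, and WT littermates. MED23 is a subunit of Mediator, the complex that links transcription factors to RNA polymerase II. The Prx1 promoter drives Cre in limb and part of the skull mesenchyme, so cells outside this lineage keep the gene.

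Growth factors such as FGFs bind receptor tyrosine kinases, which activate RAS, then the kinases RAF, MEK and ERK. ERK phosphorylates transcription factors and so switches on genes that include its own inhibitors. DUSP4, DUSP5 and DUSP6 are dual-specificity phosphatases that remove the activating phosphates, DUSP6 in the cytoplasm and the other two in the nucleus. Sprouty (SPRY) and Spred proteins act further up, between the receptor and RAF. ETV4 and ETV5 are ETS transcription factors induced by FGF signalling. In the skull, FGF receptor signalling is known for its part in suture closure and osteoblast differentiation.

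The libraries differed in ways that bear on these genes. The number of fragments, estimated from the steps between low values, ran from 7870000 to 11400000 per mouse, and the 3 Med23MSC-/- mice, at 7870000 to 8860000, lay below the 3 controls, at 9160000 to 11140000. Xist, the RNA of the inactive X chromosome, was above 1 FPKM in controls 2 and 3 and WT 1 and in no mutant mouse. By this RNA those mice would be female and all mutants male. Sex was then uneven over genotype in both crosses, and its part in the differences cannot be fully told apart from that of genotype. The RNA of Med23 was 5.32 ± 0.732 FPKM (SD, n = 3) in controls and 5.30 ± 0.425 in Med23MSC-/- mice. Runx2 RNA was 31.6 ± 5.39 FPKM in WT and 33.5 ± 2.76 in Runx2+/- mice. Both differences were smaller than the spread between mice. The value of a whole transcript can also count fragments outside a deleted part, so these values do not check the genotypes. In the Med23 cross Runx2 RNA was 35.5 ± 4.31 FPKM in controls and 26.7 ± 2.64 in Med23MSC-/- mice, without overlap. The defining markers of osteoblasts were abundant in all 12 mice, their summed level being at least 15612 FPKM.

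All 3 phosphatases had lower means in both mutants, and the Sprouty, Spred and ETV genes mostly overlapped with the littermates. Of these, Etv5 lay below every control in Med23MSC-/- mice, with a mean 8.55% lower. The mean of Etv4 was 23.8% lower in Runx2+/- mice, more than that of Dusp6, but its values overlapped. In Med23MSC-/- mice all 3 phosphatases lay below every control, with mean levels 41.4% lower for Dusp4, 43.8% lower for Dusp5 and 35.9% lower for Dusp6. In Runx2+/- mice Dusp4 and Dusp6 lay below every WT mouse, with means 44.8% and 19.2% lower, while Dusp5 overlapped. Over all tested genes, 7.68% lay below every control in the Med23 cross and 10.4% below every WT mouse in the Runx2 cross. The 3 phosphatases together made up 38.5 ± 3.36% of the summed FPKM of the 10 genes in controls and 28.2 ± 2.82% in Med23MSC-/- mice. The same share was 39.3 ± 2.47% in WT and 31.4 ± 3.14% in Runx2+/- mice (SD, n = 3 each). The plot of the members in each mouse shows these values.

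**Figure D1:**
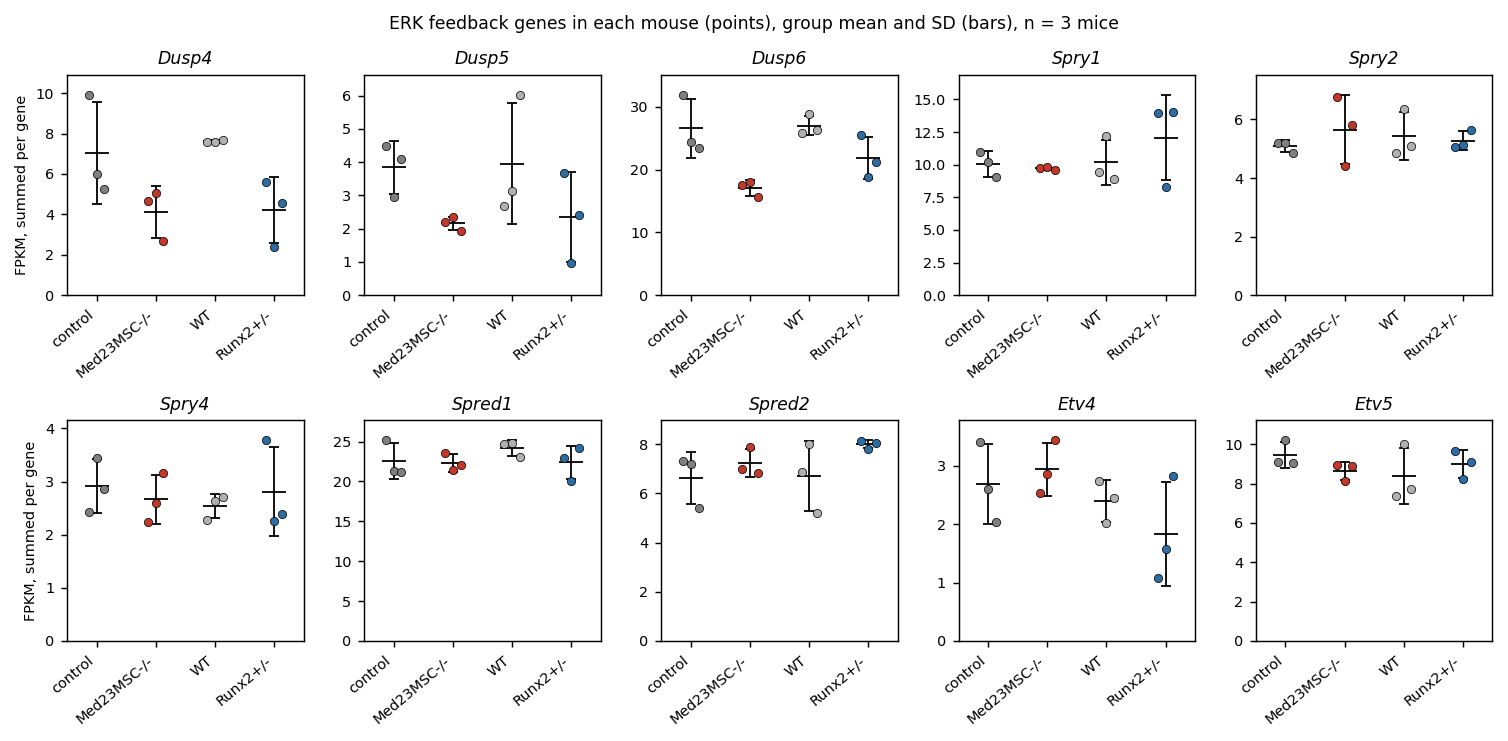
Level of each of the 10 genes (FPKM, linear axes starting at 0) in the 3 mice of each group, with the group mean (long bar) and SD (whiskers). The points of Dusp4, Dusp5 and Dusp6 sit lower in Med23MSC-/- than in control mice without overlap, and those of Dusp4 and Dusp6 sit lower in Runx2+/- than in WT mice.

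Among members, levels per length could be ordered. Dusp6 and Spred1 were the most abundant in controls, at 26.6 ± 4.69 and 22.6 ± 2.24 FPKM. Their ranges overlapped, though Dusp6 was above Spred1 in each control mouse. Spry1 (10.1 ± 0.964) and Etv5 (9.46 ± 0.641) came next and overlapped, as did Dusp4 (7.05 ± 2.52) and Spred2 (6.63 ± 1.06). Spry2 followed at 5.09 ± 0.195 FPKM. Dusp5 (3.84 ± 0.796), Spry4 (2.91 ± 0.511) and Etv4 (2.69 ± 0.686) were the lowest and overlapped with each other. The estimated fragments behind a level ran from 20 to 134 per mouse for Dusp5 and from 26 to 86 for Etv4, so counting alone gave an error of up to 22.2% for Dusp5. For Dusp6 the fragments numbered 386 to 966 and the counting error was at most 5.09%.

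Dusp6 (chr10:99263231-99267489 in GRCm38) encodes the cytoplasmic ERK phosphatase. Its level was 32.0, 24.4 and 23.4 FPKM in controls 1, 2 and 3 and 17.5, 18.1 and 15.6 FPKM in Med23MSC-/- mice 1, 2 and 3. The highest mutant was thus below the lowest control, and the log2 fold change on the log2(FPKM + 1) scale was -0.60 ± 0.13 (SE). For the Runx2 cross the level was 25.9, 28.8 and 26.4 FPKM in WT mice and 25.6, 18.9 and 21.2 FPKM in Runx2+/- mice. Here the groups came close, Runx2+/- 1 lying just under WT 1, and the log2 fold change was -0.30 ± 0.12.

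Dusp4 (chr8:34807610-34819894) encodes a nuclear phosphatase for ERK and other MAP kinases. It stood at 9.93, 5.99 and 5.24 FPKM in controls and at 4.68, 5.07 and 2.66 FPKM in Med23MSC-/- mice. Control 1 was well above the other controls and Med23MSC-/- 3 well below the other mutants, and between the remaining mice the gap was small. The log2 fold change was -0.64 ± 0.26. Without control 1 it was -0.40, without Med23MSC-/- 3 it was -0.41, and without the libraries with Xist it was -1.12, a range that the level of a few mice set. In WT mice Dusp4 was 7.60, 7.56 and 7.69 FPKM, almost the same in each, and in Runx2+/- mice 5.63, 2.41 and 4.59 FPKM. The mutants spread widely but all lay below WT, with a log2 fold change of -0.78 ± 0.22, which was -0.50 without Runx2+/- 2.

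Dusp5 (chr19:53529145-53541809) encodes the nuclear ERK phosphatase. It was at 4.48, 2.95 and 4.09 FPKM in controls and at 2.19, 2.35 and 1.94 FPKM in Med23MSC-/- mice. The mutants were closely grouped below the lowest control, and the log2 fold change was -0.60 ± 0.15. In WT mice it was 2.69, 3.15 and 6.03 FPKM and in Runx2+/- mice 3.68, 0.973 and 2.41 FPKM. These groups overlapped, with WT 3 high and Runx2+/- 2 low, and the log2 fold change of -0.59 ± 0.34 rested on them. It was -0.31 without WT 3 and -0.25 without Runx2+/- 2.

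To show the DNA next to the start sites of these phosphatases, the 250 bases before the RefSeq start site (GRCm38.p6, the build of the alignments) are given for Dusp5 (chr19:53528895-53529144, plus strand) and Dusp6 (chr10:99262981-99263230, plus strand), 5′ to 3′. Capitals mark matches to a CArG box, the motif of serum response factor, or to the CRE core TGACG of CREB proteins, on either strand.
Dusp5: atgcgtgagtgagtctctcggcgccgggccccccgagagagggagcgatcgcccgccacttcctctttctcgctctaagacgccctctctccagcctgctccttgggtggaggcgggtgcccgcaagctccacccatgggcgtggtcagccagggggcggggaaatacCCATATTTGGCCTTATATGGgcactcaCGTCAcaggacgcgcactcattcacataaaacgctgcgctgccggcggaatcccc
Dusp6: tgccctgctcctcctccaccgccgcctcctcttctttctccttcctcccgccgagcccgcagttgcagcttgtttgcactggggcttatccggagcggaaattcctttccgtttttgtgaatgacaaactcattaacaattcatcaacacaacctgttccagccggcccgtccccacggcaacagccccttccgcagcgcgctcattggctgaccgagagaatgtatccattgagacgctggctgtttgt

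The window searched ran from 250 bases before to 50 after the start site, on both strands, in 32851 mouse promoters, among them 8 of 7 members (2 of Etv5). Dusp4, Spry4 and Etv4 had none here. The Dusp5 promoter held 2 CArG boxes side by side, CCATATTTGG and CCTTATATGG, beginning 82 and 72 bases before the start site, and a CRE core 55 bases before it. A CArG box was in 1.63% of all promoters and a CRE core in 20.8%, and the latter was also in the Spred2 promoter. CCGGAA, a strict form of the ETS motif found in 14.9% of all promoters, was in that of Spry2. The shorter ETS core GGAA, whose letters also stand in the Dusp5 and Dusp6 sequences above, was not searched. The AP-1 motif TGANTCA (7.81% of all) and TGTGGT, a form of the RUNX motif (16.8%), matched in no member promoter. The RUNX form TGCGGT was not searched. A match describes letters in a window and not a bound site.

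The Sprouty genes encode inhibitors that act on the way from the receptor to RAF. Spry1 was 11.0, 10.2 and 9.04 FPKM in controls and 9.78, 9.81 and 9.60 in Med23MSC-/- mice, so that the mutants lay inside the control range. It was 9.44, 12.2 and 8.90 FPKM in WT mice and 13.9, 8.28 and 14.0 in Runx2+/- mice, in which 2 mice were above and 1 below all WT mice. The log2 fold changes were -0.04 ± 0.09 in the Med23 cross and 0.20 ± 0.20 in the Runx2 cross.

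Spry2 was 5.19, 5.21 and 4.86 FPKM in controls and 6.77, 4.40 and 5.80 in Med23MSC-/- mice, and Spry4 was 2.43, 3.45 and 2.85 in controls and 2.25, 2.60 and 3.16 in Med23MSC-/- mice. Both overlapped. Spry2 in the Runx2 cross was 4.85, 6.37 and 5.09 FPKM in WT and 5.06, 5.12 and 5.65 in Runx2+/- mice. Spry4 was 2.28, 2.63 and 2.71 FPKM in WT and 3.78, 2.26 and 2.39 in Runx2+/- mice, where Runx2+/- 1 alone was high. The 4 log2 fold changes of Spry2 and Spry4 lay between -0.09 and 0.11. Summed over the 3 Sprouty genes, the level was 18.1 ± 1.14 FPKM in controls and 18.1 ± 1.08 in Med23MSC-/- mice.

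SPRED1 and SPRED2 restrain RAS with the help of neurofibromin. Spred1 was 25.2, 21.3 and 21.2 FPKM in controls, 23.6, 21.4 and 22.0 in Med23MSC-/-, 24.7, 24.8 and 23.0 in WT and 22.9, 20.1 and 24.2 in Runx2+/- mice. Its log2 fold changes were -0.01 ± 0.10 in the Med23 cross and -0.11 ± 0.09 in the Runx2 cross. Spred2 was 7.31, 7.17 and 5.40 FPKM in controls and 6.98, 7.86 and 6.84 in Med23MSC-/- mice. Its levels were 6.88, 8.02 and 5.22 FPKM in WT and 8.13, 7.82 and 8.04 in Runx2+/- mice. The Runx2+/- values were close together near the highest WT mouse, and the log2 fold change was 0.24 ± 0.14.

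Etv5 was 9.12, 10.2 and 9.06 FPKM in controls and 8.96, 8.11 and 8.88 in Med23MSC-/- mice. The groups did not overlap, but came close, and the log2 fold change was -0.12 ± 0.09. In the Runx2 cross Etv5 was 7.37, 10.01 and 7.75 FPKM in WT and 9.66, 8.25 and 9.07 in Runx2+/- mice, and overlapped. Etv4 was 3.41, 2.61 and 2.04 FPKM in controls and 2.54, 2.86 and 3.44 in Med23MSC-/- mice, which overlapped. It was 2.74, 2.02 and 2.45 FPKM in WT and 1.09, 1.58 and 2.83 in Runx2+/- mice, where Runx2+/- 1 and 2 were below and Runx2+/- 3 above all WT mice. The log2 fold change there was -0.31 ± 0.22.

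**Figure D2:**
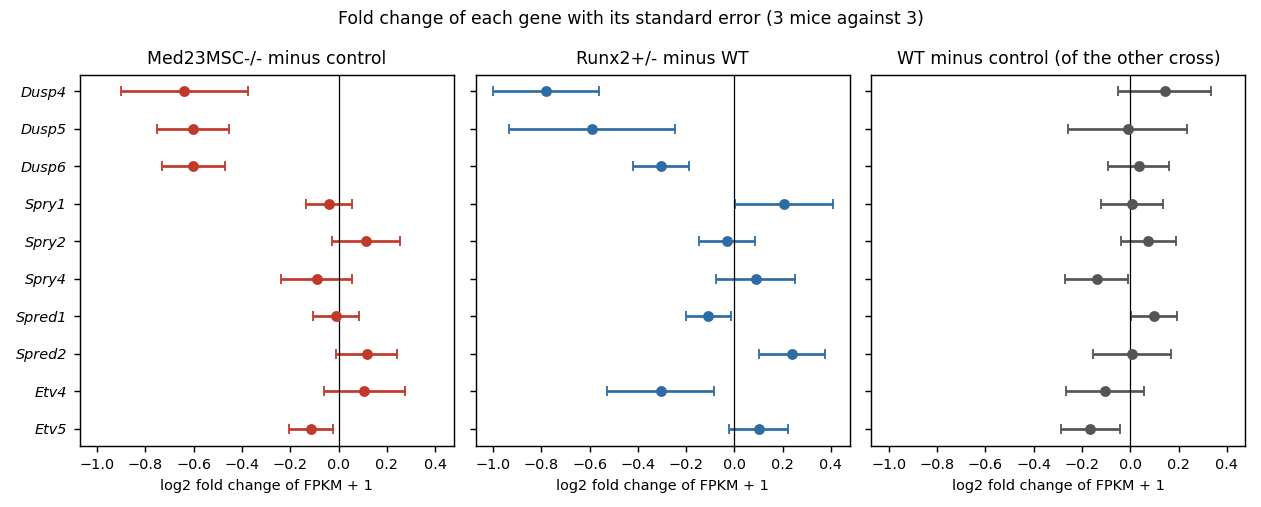
Log2 fold change of FPKM + 1 (points) with its limma standard error (bars) for the 10 genes in each of 3 comparisons of 3 mice with 3. The phosphatases lie left of 0 in both mutants, at -0.64 to -0.60 in Med23MSC-/- and -0.78 to -0.30 in Runx2+/- mice, and all genes lie between -0.17 and 0.14 between the control groups of the crosses.

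Set beside all genes, the members read as follows. In Med23MSC-/- mice 4 of the 10 (the phosphatases and Etv5) lay below every control and none above, where 7.68% of the 13059 tested genes lay below and 19.6% above. In Runx2+/- mice 2 of the 10 lay below every WT mouse and none above, beside 10.4% of all genes below and 10.7% above. Since the genes were chosen with these comparisons in view, nothing is read from the counts. The median log2 fold change of the 10 was -0.07 in each cross, and that of all genes 0.06 in the Med23 and 0.02 in the Runx2 cross.

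The comparison of the 2 control groups was not used to choose the genes and could be tested. It asks whether the normal level differed between the crosses. None of the 10 genes passed in limma with Benjamini-Hochberg adjustment over all genes (0 of 10 at an adjusted p of 0.05, beside 0.0383% of all genes, and 0 of 10 at an unadjusted p of 0.05, beside 9.43%). The log2 fold changes, WT minus control, ran from -0.17 for Etv5 to 0.14 for Dusp4. The 95% interval was -0.26 to 0.33 for Dusp6, -0.31 to 0.59 for Dusp4 and -0.58 to 0.56 for Dusp5, which are the differences that these mice leave room for.

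The other genes of the pathway were tested in both crosses. Their lists were also chosen with earlier results of these data known, so the tests are not independent of that choice. As background, 1.57% of all genes passed limma's adjusted p of 0.05 in the Med23 cross and 21.3% had an unadjusted p under 0.05, and in the Runx2 cross these shares were 1.89% and 15.4%. Of 8 other dual-specificity phosphatases of the MAP kinases, 0 passed in the Med23 cross, and 2 had an unadjusted p under 0.05, both higher in the mutants. They were Dusp10 (3.19 to 4.31 FPKM in Med23MSC-/- mice and 2.73 to 2.81 in controls) and Dusp16 (3.54 to 4.59 and 2.51 to 3.24), which lay above every control, on the other side from Dusp4, Dusp5 and Dusp6. In the Runx2 cross 0 of the 8 passed, and 4 had an unadjusted p under 0.05. Of these, Dusp1, Dusp10 and Dusp14 were higher and Dusp9 lower in Runx2+/- mice. Dusp1, the most abundant of them and an early response gene, was 22.4, 43.6 and 43.8 FPKM in controls and 22.6, 31.8 and 47.6 in Med23MSC-/- mice, which overlapped. Among 9 tested other feedback inhibitors 1 fell, Errfi1, an inhibitor of the EGF receptor. It was 49.9, 44.2 and 52.7 FPKM in controls and 28.0, 25.7 and 28.0 in Med23MSC-/- mice, and fell by 0.82 on the log2 scale (limma adjusted p = 0.021). Errfi1 in the Runx2 cross was 38.6, 42.3 and 39.7 FPKM in WT and 37.3, 33.7 and 75.3 in Runx2+/- mice, in which only Runx2+/- 3 was high.

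Immediate early genes are those that ERK and other signals switch on within minutes. Of 16 tested, 5 fell in Med23MSC-/- mice and 0 rose. At an unadjusted p under 0.05 there were 9, of which 8 were lower and 1 higher, Srf, the gene of serum response factor, at 11.3 ± 1.43 FPKM in the mutants and 8.36 ± 1.1 in controls (SD, n = 3 each), without overlap. The list's median log2 fold change was -0.35, beside 0.06 over all genes. Between the control groups of the crosses, WT minus control, the list's median was also negative, at -0.31. There 15 of the 16 genes were lower in WT and 0 passed. At an unadjusted p under 0.05 there were 6, all lower in WT, beside 9.43% of all genes. Egr1, a zinc finger factor, was 26.5, 39.6 and 25.4 FPKM in controls and 6.58, 6.38 and 7.35 in Med23MSC-/- mice, and fell by 1.99 on the log2 scale (limma adjusted p = 0.021). Its relative Egr3 was 5.72, 6.26 and 4.26 FPKM in controls and 1.92, 1.92 and 1.94 in the mutants (log2 fold change -1.12, limma adjusted p = 0.027). Egr2, at 1.53 to 2.16 FPKM in controls and 0.468 to 0.681 in the mutants, also fell (-0.83, limma adjusted p = 0.048). In Egr1 and Egr3 the mutants were tightly grouped well under the controls. In Egr2 they also lay below every control, but at low levels, under 1 FPKM.

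Junb, an AP-1 subunit, was 32.2, 31.4 and 28.4 FPKM in controls and 16.6, 17.6 and 16.3 in Med23MSC-/- mice (log2 fold change -0.83, limma adjusted p = 0.021). Ier2 was 30.5, 35.5 and 29.4 FPKM in controls and 15.5, 14.7 and 20.8 in the mutants (-0.88, limma adjusted p = 0.040). Ccn1, the most abundant gene of the list and one that codes for a matrix protein, was not called and varied from 67.3 to 161 FPKM in controls and from 111 to 261 in the mutants. Of the 16 genes, 0 passed in the Runx2 cross. There 4 had an unadjusted p under 0.05, Fos and Junb lower and Ccn1 and Jund higher in the mutants. Ccn1 showed the largest difference of the list, at 89.2 to 203 FPKM in Runx2+/- and 49.2 to 64.9 in WT mice, a log2 difference of 1.25 without overlap (limma adjusted p = 0.066). In the same cross Egr1 was 23.4, 32.7 and 25.6 FPKM in WT and 28.5, 15.5 and 31.1 in Runx2+/- mice, which overlapped. Junb was 20.7, 22.7 and 26.2 FPKM in WT and 15.9, 8.99 and 17.4 in Runx2+/- mice, which did not overlap but did not pass the test.

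Of 11 tested other outputs of ERK, 3 fell in Med23MSC-/- mice, namely Egr1 and Junb, which are also immediate early genes, and Epha2, a receptor for ephrins. Epha2 was 8.18, 8.83 and 7.35 FPKM in controls and 4.62, 5.29 and 5.05 in Med23MSC-/- mice (log2 fold change -0.61, limma adjusted p = 0.042). Ccnd1, which codes for cyclin D1, was the most abundant of this list and was 34.5, 37.3 and 36.5 FPKM in controls and 38.0, 37.6 and 51.4 in Med23MSC-/- mice. It lay above every control but did not pass (limma adjusted p = 0.39). None of these 11 genes passed in the Runx2 cross (3 at an unadjusted p under 0.05, all lower).

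At the start of the pathway, 2 of 13 tested ligands fell in Med23MSC-/- mice. Fgf7, a fibroblast growth factor, was 5.11, 4.09 and 5.46 FPKM in controls and 2.24, 2.46 and 2.45 in the mutants (log2 fold change -0.79, limma adjusted p = 0.036). Igf2, an insulin-like growth factor and the most abundant ligand, was 2090, 2043 and 2023 FPKM in controls and 1136, 1100 and 1337 in the mutants (-0.79, limma adjusted p = 0.027). In the Runx2 cross Igf2 was 2013, 2191 and 1941 FPKM in WT and 2555, 2368 and 2765 in Runx2+/- mice, above every WT mouse. Only Pdgfb, a platelet-derived growth factor, passed there. It was 14.3, 19.0 and 18.4 FPKM in WT and 11.0, 7.51 and 7.73 in Runx2+/- mice (-0.91, limma adjusted p = 0.039). Pdgfb also lay below every control in Med23MSC-/- mice, at 9.50 to 11.9 against 15.0 to 20.8 FPKM, without passing (limma adjusted p = 0.083).

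The middle of the pathway gave no call. In the Med23 cross 0 of 16 tested receptors passed limma's adjusted p, and at an unadjusted p under 0.05 there was 1, lower. Of 25 genes from the adaptors to the ERK kinases 0 passed, with 2 at an unadjusted p under 0.05, both higher, and of 12 other ETS factors 0 passed, with 1 lower and 1 higher at an unadjusted p under 0.05. In the Runx2 cross 0 of the 16, 0 of the 25 and 0 of the 12 passed, and at an unadjusted p under 0.05 there were 2, 0 and 1, all lower. Csf1r, the macrophage receptor and the most abundant receptor, ranged from 64.5 to 120 FPKM in controls and from 52.0 to 73.0 in Med23MSC-/- mice. Mapk3, the gene of ERK1, was 60.1, 68.1 and 67.5 FPKM in controls and 66.2, 65.8 and 64.0 in Med23MSC-/- mice, a log2 fold change of 0.0048 ± 0.080. Elk3, the most abundant of the ETS factors listed, differed by -0.06 ± 0.10.

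**Figure D3:**
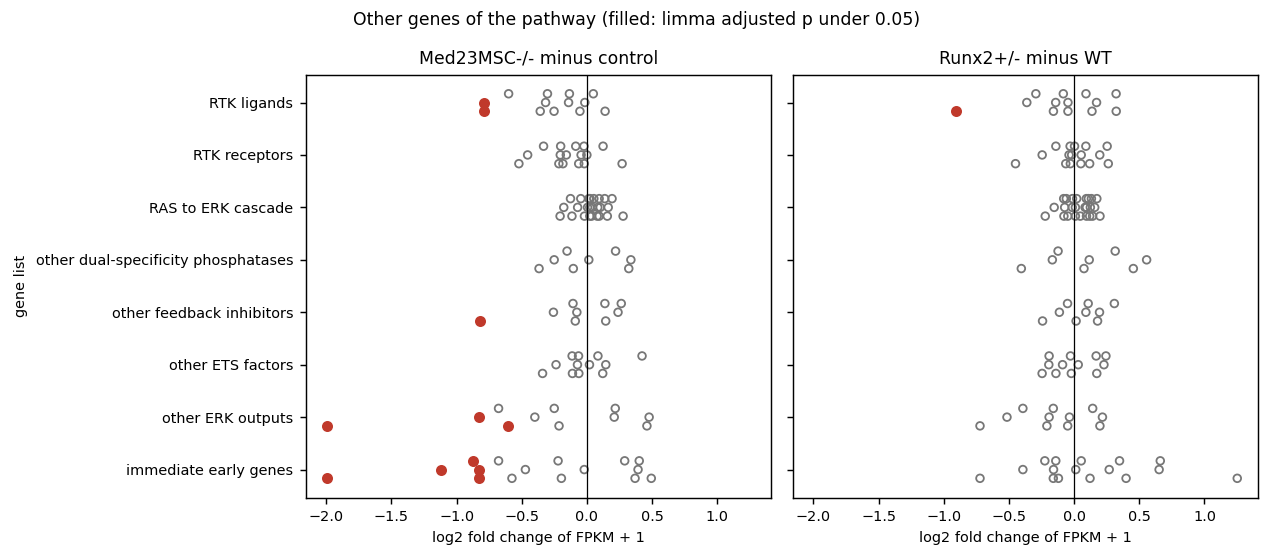
Log2 fold change of FPKM + 1 for each tested gene of 8 lists of the pathway (circles, spread vertically for visibility) in the 2 mutants, with filled circles for a limma adjusted p under 0.05. The 9 genes called in Med23MSC-/- mice (Egr1 and Junb appear in 2 lists) are all lower than in controls, and 1 ligand gene, Pdgfb, is called in Runx2+/- mice.

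Over all 8 lists, 9 of 107 tested genes fell in Med23MSC-/- mice and 0 rose, and 25 had an unadjusted p under 0.05 (18 lower and 7 higher). In Runx2+/- mice 1 fell and 0 rose, and 16 had an unadjusted p under 0.05 (9 lower and 7 higher). Since the lists were chosen with earlier results known, these counts are a description. The calls depended on the number of mice. Leaving out any 1 mouse left 0 to 2 of the 9, and without the libraries with Xist none passed, although each of the 9 stayed lower throughout. The difference between the crosses was itself tested and passed for 1 of the 107 genes, Igf2 (0.153% of all genes passed this test). For the other 8 genes called in Med23MSC-/- mice and for Pdgfb the crosses were not shown to differ.

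**Figure D4:**
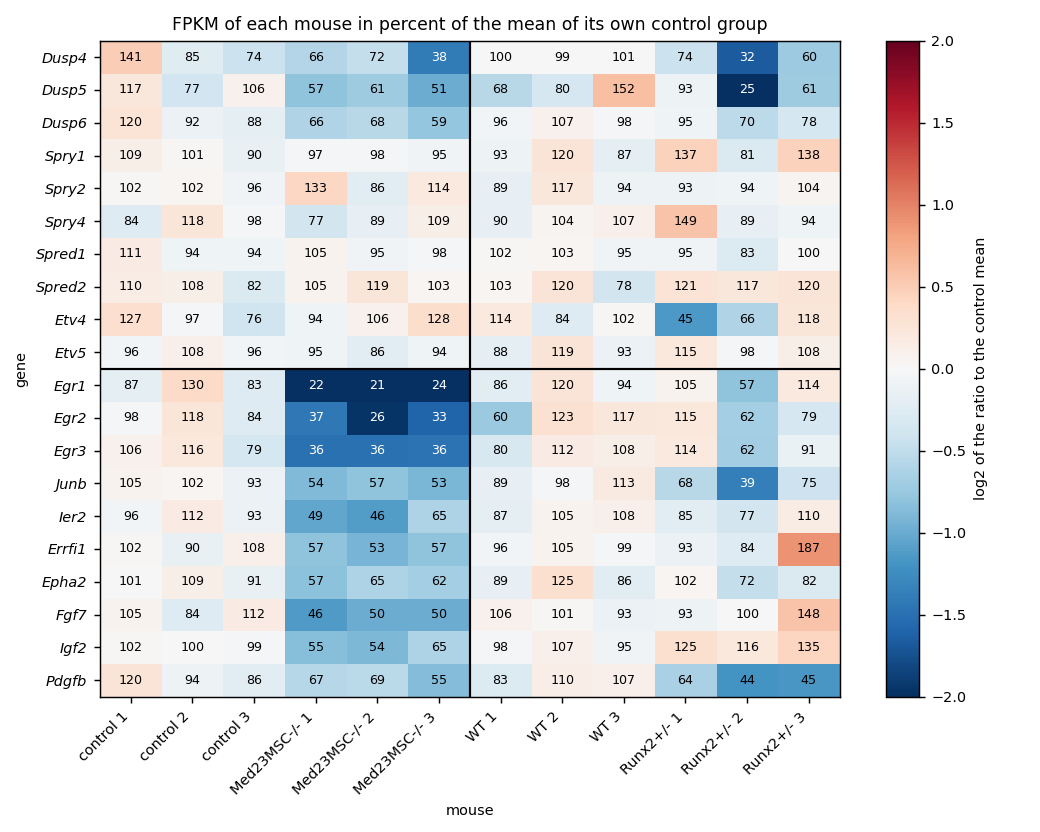
Level of each mouse as a percentage of the mean of the control group of its own cross (numbers), colored by the log2 of the ratio, for the 10 genes (above the line) and the 10 other pathway genes called in either cross (below). The Med23MSC-/- columns are blue from Dusp4 to Dusp6 and from Egr1 to Igf2 and pale from Spry1 to Etv5, and Runx2+/- 2 has the lowest Dusp4 and Dusp5, at 31.6% and 24.6% of the WT mean.

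Dusp4 and Dusp6 also varied together with the group differences taken out. With each group's mean removed, they correlated with Pearson's r of 0.91 and Spearman's rho of 0.88 over the 12 mice, which are 3 mice in each of 4 groups and share the library scaling. Without removal the r was 0.87, and 0.87 again without the 2 mice farthest from the median of Dusp4. For Dusp4 with Dusp5 the within-group r was 0.63 and for Dusp5 with Dusp6 it was 0.56. Dusp6 and Spry1 gave a within-group r of 0.68 but 0.31 over the 12 mice as they were. Spred1, which encodes no phosphatase, gave a higher within-group r than Dusp5, at 0.73 with Dusp4 and 0.70 with Dusp6. Over the 12 mice as they were, these were 0.69 and 0.55. Over all 45 pairs of members the within-group r ran from -0.43 to 0.91, with a median of 0.32.

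**Figure D5:**
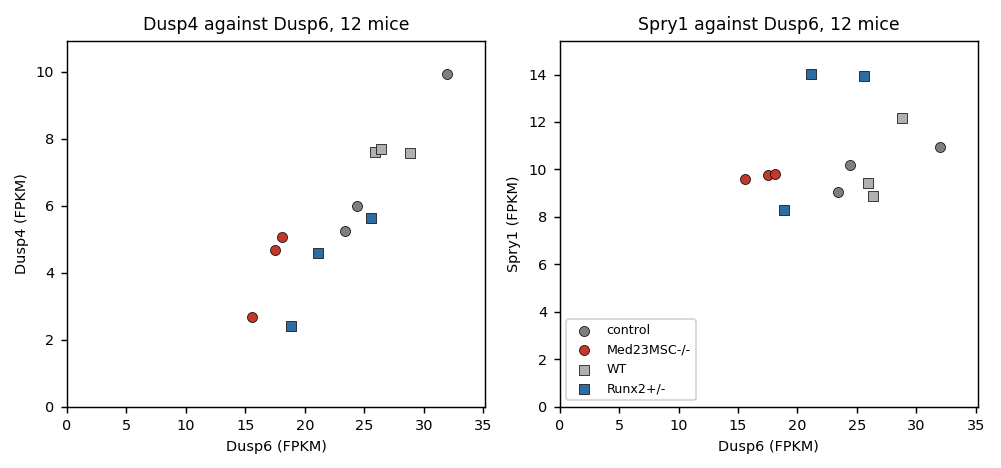
Level of Dusp4 (left) and Spry1 (right) against that of Dusp6 in each of 12 mice (FPKM, linear axes from 0; circles for the Med23 cross, squares for the Runx2 cross). Dusp4 is higher where Dusp6 is higher over the 12 mice and in 3 of the 4 groups, but is flat among the WT mice at 7.56 to 7.69 FPKM, and Spry1 lies between 8.28 and 14.0 FPKM at every level of Dusp6.

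The genes most like Dusp6 over the 12 mice, by Pearson's r of log2(FPKM + 1) against the 13059 tested genes, were Sema7a (0.99), Stk11ip (0.96), Cyb561a3 (0.94), Nkd2 (0.94) and Asic3 (0.94). Dusp4 was at rank 59 and Dusp5 at rank 405. For Spry4 they were Hexdc (0.89), Fxr2 (0.87), Tmem250-ps (0.86), Tmem214 (0.86) and Skiv2l (0.86), and among the members Etv5 came first, at rank 635. These r values are the highest of many and are given as a description.

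Fewer cells of a type and less RNA per cell cannot be told apart in whole calvaria. The summed markers of some cell types also differed between mutants and littermates, not always in the direction of the phosphatases. Among Runx2+/- mice, mouse 2 had the lowest summed phosphatases (22.3 FPKM) but the highest summed osteoblast markers (25459 FPKM). The summed level of 8 osteoblast markers was 33613 to 35719 FPKM in controls and 15612 to 22100 in Med23MSC-/- mice, and 29639 to 33402 in WT and 19607 to 25459 in Runx2+/- mice, without overlap in either cross. Of the 8, 1 was called lower in the Med23 cross, Bglap, the gene of osteocalcin, and 8 of 8 had a negative log2 fold change. In the Runx2 cross 0 were called, and 5 had a negative and 3 a positive log2 fold change. The lower sum rested on the means of Spp1 (17845 FPKM in WT and 10491 in Runx2+/- mice), Bglap (7179 and 5524) and Ibsp (1192 and 669). Bglap alone overlapped widely, at 5197 to 8179 FPKM in WT and 1995 to 9377 in Runx2+/- mice. Col1a1, Alpl and Sp7 had log2 fold changes of 0.18, 0.15 and 0.08 there, and Dmp1 one of -0.04. The 6 erythroid markers summed to 12638 to 17023 FPKM in controls and 7196 to 11472 in Med23MSC-/- mice, and overlapped in the Runx2 cross (15032 to 16891 in WT and 3866 to 15542 in Runx2+/- mice).

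The 10 skeletal muscle markers summed to 26.3 to 1549 FPKM in controls and 665 to 4654 in Med23MSC-/- mice, which overlapped, and to 2139 to 6387 in WT and 30.9 to 209 in Runx2+/- mice, where 9 of the 10 were called lower. The 5 nerve markers summed to 15.3 to 19.0 FPKM in controls and 25.9 to 38.2 in Med23MSC-/- mice, without a call. The 5 macrophage and osteoclast markers found and the 6 of endothelium overlapped in the Med23 cross. They were lower in Runx2+/- mice without overlap, at 3301 to 4116 against 5021 to 6293 FPKM and at 80.1 to 93.1 against 112 to 121 FPKM. The 6 cartilage markers overlapped in both crosses (22.5 to 73.4 FPKM over all mice), with 1 called lower in the Med23 cross, and so did the 5 of epidermis (3.16 to 5.47 FPKM), of which 1 could be tested and was not called. None of the erythroid or macrophage and osteoclast markers passed in either cross, and 1 of the 6 of endothelium did in Runx2+/- mice. Of all these markers only Krt5 and Krt14 were listed at 0 in any mouse. The part of these shifts in the levels of the phosphatases was not tested.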

How the data were processed

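The authors deposited 1 file per mouse with an FPKM value for each of 30411 RefSeq transcripts. The submitters' processing notes name Bowtie 0.12.8 and mm10 (GRCm38), and the program that estimated FPKM is not given in the sources used here. The unit was taken from the methods and the values, which summed to 891329 to 1068933 per mouse. Transcripts were assigned to symbols (29835 by the NCBI table, 180 by GENCODE, 396 not matched) and summed to 23715 genes. Values were compared as log2(FPKM + 1), which understates changes of low genes, in the 13059 genes that reached 1 FPKM in 3 or more of the 12 mice. limma 3.58.1 (R 4.3.3, intensity trend, Benjamini-Hochberg adjustment) was fitted for each comparison to its own 6 mice, and the difference between the crosses to all 12. Groups were taken from the labels. Each limma p-value sets a difference between groups against the spread between these mice, moderated across genes.

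The number of fragments was estimated from the smallest steps between low values, and counting errors cover counting only. The members and lists were chosen with earlier results of these data known. Genes named beyond the members are the targeted genes and Xist, per pathway list the most abundant gene and up to 4 called genes by size of change in each cross, and the 5 genes most like Dusp6 and Spry4. Dusp9, Dusp10, Dusp14, Dusp16, Srf, Fos, Jund, the osteoblast markers, Krt5 and Krt14 were added after their values were seen. So were the Pdgfb, Egr1, Junb, Errfi1, Igf2 and Runx2 values outside the cross that named them. The scripts were tested on simulated data. Alternatives were a pseudocount of 0.1, no filter, all mice in a single fit, a replicate block, 3 rescalings, leaving out each mouse and, added after seeing the data, leaving out the libraries with Xist above 1 FPKM. Same-numbered mice were checked for shared deviations before the block was compared.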

Additional observations from a re-analysis of the deposited data

Results flagged for a closer look

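Igf2, the most abundant of the ligands listed, differed between the crosses. Its log2 fold change in the Med23 cross minus that in the Runx2 cross was -1.11 (limma adjusted p = 0.020 over 13059 genes). All 3 Med23MSC-/- mice were below all controls and all 3 Runx2+/- mice above all WT mice.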

How the results depend on the processing

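The log2 fold changes of Dusp4, Dusp5 and Dusp6 kept their direction in both crosses under every alternative. In the Med23 cross they ranged from -1.12 to -0.40, -0.80 to -0.51 and -0.87 to -0.47. In the Runx2 cross they ranged from -0.98 to -0.50, -0.87 to -0.25 and -0.42 to -0.21. Part of this was fixed in advance. No filter, a single fit and the replicate block leave the estimate as it was. Where groups do not overlap, leaving out a mouse cannot change the sign. Under some alternatives the sign changed for Spry1, Spry2, Spry4, Spred1, Spred2 and Etv4 in the Med23 cross. In the Runx2 cross it changed for Spry2 and Spry4. None of the members passed between the control groups under any alternative. Counts over all genes depended strongly on the processing, and the cause was not tested. In the Med23 cross 205 genes passed (132 higher and 73 lower), 1 without the filter, 717 with all mice in a single fit, 107 rescaled to the same sum (42 and 65), 106 rescaled without the muscle list (42 and 64) and 143 rescaled by median ratios (57 and 86). In the Runx2 cross 247 passed, 5 without the filter and 95 with all mice in a single fit. Between the controls 5 passed, and 8 with all mice in a single fit. For the difference between the crosses 20 passed, 6 without the filter, and 37 and 38 under the rescalings to the same sum, without and with the muscle list left out. Rescaling to the same sum moved the median of this difference over all genes from 0.04 to -0.09.

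Leaving out 1 mouse at a time gave 0 to 35 genes in the Med23 cross, 34 to 169 in the Runx2 cross, 4 to 10 between the controls and 2 to 164 for the difference, and 0 to 2 of the pathway genes in the Med23 cross and 0 to 1 in the Runx2 cross. Without the libraries with Xist above 1 FPKM, which leaves 1 control mouse assumed to vary like the other groups, the same counts were 0, 34, 17 and 1, and 0 and 0. Of the pathway genes 9 passed in the Med23 cross and 1 in the Runx2 cross, against 0 and 0 without the filter and 9 and 2 under median ratios. The adjusted p ranged over the alternatives from 0.0047 to 0.096 for Egr1, from 0.013 to 0.13 for Errfi1 and from 0.034 to 0.15 for Pdgfb.

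Same-numbered mice correlated in their deviations from the group means with r of 0.18, 0.26 and 0.05 in the Med23 cross, each mutant best with its own number, but not so in the Runx2 cross, so the numbers were not taken as pairs. With the number as a replicate block 273 genes passed in the Med23 cross, 90 in the Runx2 cross, 2 between the controls and 136 for the difference, and 6 and 0 pathway genes. Depth limited Dusp5 and Etv4 most.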
